A study of Mus musculus with 9 samples.

Results

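The sirtuins are a family of 7 genes in the mouse, Sirt1 to Sirt7, and all 7 were found by symbol among the 23799 genes of the expression table. RNA sequencing was done on 9 libraries of fluorescently sorted mouse tumour cells. All 7 sirtuin genes reached at least 1 RPKM in at least 2 libraries and entered the tests, with 12832 genes in all. RPKM is the number of reads per kilobase of gene, scaled here by a read total for each library, so levels of different genes can be compared.

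Pancreatic ductal adenocarcinoma (PDAC) cells carried a YFP reporter and made up 5 libraries, from liver metastases (numbers 1 and 5), a lung metastasis (number 1) and primary tumours (numbers 1 and 5). Their genotype was p48-Cre/p53F/+KrasL/+/ROSA-LSL-YFP in every case, and the 3 libraries of number 1 had SIRT6F/F, a pair of floxed SIRT6 alleles, in addition. The p48 promoter (Ptf1a) drives Cre in pancreatic progenitor and acinar cells. Number 1 was taken at 25.67 weeks and number 5 at 28.95 weeks, so the floxed alleles, the age and the mouse number cannot be told apart. Breast cancer (BC) cells derived from 4T1-eGFP, a GFP-marked form of 1 mouse mammary carcinoma line, and made up 4 libraries taken at 28 days, from lung metastases (numbers 4 and 6) and primary tumours (numbers 1 and 5). The labels do not say whether BC libraries of a group came from separate animals, so the spread between them may be technical. In the main fit each gene has 1 spread pooled over the PDAC and BC groups. A p-value between BC groups therefore does not measure the spread of BC libraries alone.

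Sirtuins remove acetyl and other acyl groups from lysines and consume NAD in doing so, which ties their activity to the supply of that cofactor. SIRT1, SIRT6 and SIRT7 are mainly nuclear and act on histones, transcription factors and ribosomal DNA, SIRT2 is mainly cytosolic and deacetylates tubulin among other proteins, and SIRT3, SIRT4 and SIRT5 reside in mitochondria. In mouse pancreatic cancer SIRT6 is known as a tumour suppressor that holds the fetal RNA-binding protein gene Lin28b silent.

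Several libraries listed many ordinary genes near 0, and the sirtuin values have to be read beside this. Of genes with a median of 2 to 50 RPKM in the other libraries, 38.5% were below 0.1 RPKM in PDAC lung metastasis 1, 38.3% in PDAC primary 5, 30.4% in BC lung metastasis 6 and 17.0% in PDAC liver metastasis 1, against 0.493 to 3.31% in the other 5 libraries. Of 14 housekeeping genes 1 was listed at 0 in PDAC lung metastasis 1 and 2 in PDAC primary 5. Sirtuins below 0.1 RPKM numbered 6 of 7 in PDAC primary 5, 3 in PDAC lung metastasis 1, 2 in PDAC liver metastasis 1, 2 in BC lung metastasis 6, 1 in PDAC primary 1 and 0 in the other 4. A value of 0 in these libraries is therefore given as listed at 0, and was not read as a silent gene. Blood cell markers also differed between libraries: 6 pan-leukocyte genes summed to 199 to 7390 RPKM in PDAC and 53.6 to 204 RPKM in BC libraries, and the 5 erythroid genes in the table summed to 276 to 360000 RPKM in PDAC and 23.1 to 584 RPKM in BC libraries. The 7 epithelial genes summed to 124 to 15800 RPKM in PDAC and 2920 to 5670 RPKM in BC libraries. The low PDAC sums were 124 RPKM in the lung metastasis and 245 RPKM in liver metastasis 5, with the remaining PDAC libraries at 2080 RPKM or more. Fewer cells of a type and less RNA per cell cannot be told apart in such bulk libraries.

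**Figure D1:**
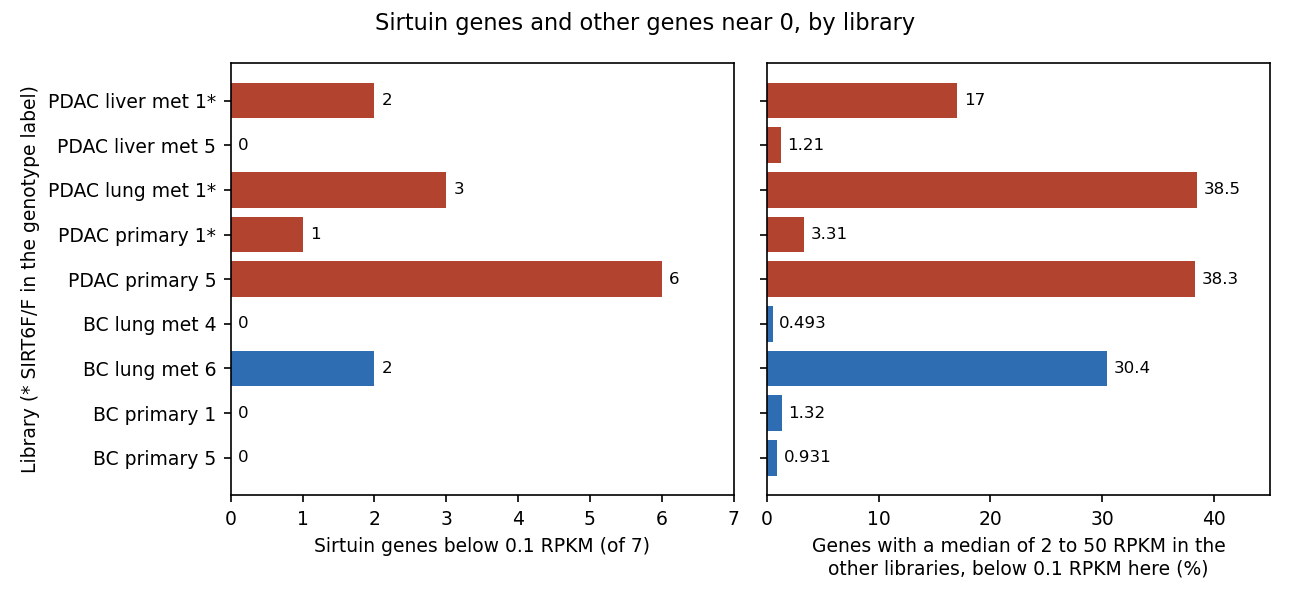
Number of the 7 sirtuin genes below 0.1 RPKM (left panel, count) and percentage of genes with a median of 2 to 50 RPKM in the other libraries that were below 0.1 RPKM (right panel), as bars for each library, PDAC in red and BC in blue. PDAC primary 5 had 6 sirtuin genes and 38.3% of the other genes below 0.1 RPKM, while BC lung metastasis 4 and both BC primaries had 0 sirtuin genes and at most 1.32%.

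Of the sirtuin promoters, 2 stretches are shown, for the member with the lowest median level and for the member named in the genotype labels. Sequences are from RefSeq (build GRCm38.p6, not the mm9 build of the expression values), and all 7 genes matched. They run 5′ to 3′ on the strand of the gene. Capitals mark the E-box CACGTG, the recognition sequence of MYC and circadian bHLH factors, and the GC box GGGCGG or its reverse CCGCCC, some of which overlap. The Sirt1 stretch lies at chr10:63339051-63339285 on the minus strand, before the first exon, and the Sirt6 stretch at chr10:81627323-81627471 on the minus strand, between annotated exons and before the downstream of 2 annotated starts.
Sirt1: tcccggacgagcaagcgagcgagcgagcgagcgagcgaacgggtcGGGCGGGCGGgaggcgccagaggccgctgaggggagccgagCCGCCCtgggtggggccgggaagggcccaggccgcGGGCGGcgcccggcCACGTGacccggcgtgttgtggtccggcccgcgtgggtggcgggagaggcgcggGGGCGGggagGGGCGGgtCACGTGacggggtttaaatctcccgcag
Sirt6: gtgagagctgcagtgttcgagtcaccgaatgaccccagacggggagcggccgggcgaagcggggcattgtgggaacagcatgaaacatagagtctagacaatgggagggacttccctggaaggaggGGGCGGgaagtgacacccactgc
The Sirt1 stretch of 235 bases held 2 E-boxes and 6 GC boxes, and the Sirt6 stretch of 149 bases 0 E-boxes and 1 GC box. Their whole windows of 300 bases held 2 E-boxes and 7 GC boxes for Sirt1, and 0 and 1 for Sirt6. The window of the upstream Sirt6 start held 0 of either. Among 32851 RefSeq promoter windows of 300 bases, 7.15% held an E-box and 35.7% a GC box on either strand. The Sirt1 window was 79.0% G and C with 47 CpG pairs, against a median over all windows of 52.7% and 7. Such matches describe the sequence only.

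The gene named in the labels was examined first. Sirt6, a nuclear deacylase of histone H3 that restrains glycolytic genes, was at 2.91 RPKM in liver metastasis 1, listed at 0 in lung metastasis 1 and at 3.49 RPKM in primary 1, the PDAC libraries with SIRT6F/F. In the PDAC libraries without SIRT6F/F in the label it was at 2.23 RPKM in liver metastasis 5 and listed at 0 in primary 5. The ranges overlapped, and the highest PDAC value belonged to a library labelled SIRT6F/F. The values do not show a loss of Sirt6 RNA with the floxed alleles, and they cannot test one, because each label stands for 1 mouse number and the value sums reads over the whole gene, deleted part or not. In BC libraries Sirt6 was at 4.96 and 0.207 RPKM in the lung metastases and at 6.23 and 5.81 RPKM in the primaries. BC lung metastasis 6 lay within the PDAC range, so the models overlapped, and the remaining BC libraries lay above that range. Of all genes tested 6.23% lay lower in PDAC without overlap, and Sirt6 was not among them.

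Genes known to be held down by SIRT6 were read in the same libraries. Lin28b was listed at 0 in all 5 PDAC libraries and in both BC lung metastases, and was at most 0.00132 RPKM in the BC primaries. Igf2bp1 and Igf2bp3, fetal RNA-binding protein genes downstream of Lin28b, were listed at 0 in all 5 PDAC libraries and reached at most 0.390 RPKM and 0.0176 RPKM in BC libraries. Hmga2, a chromatin architecture gene of the same fetal programme, was at 0.0769, 0.231 and 0.0753 RPKM in the liver metastasis, lung metastasis and primary of number 1, which carry SIRT6F/F, and at 0.309 and 14.7 RPKM in liver metastasis 5 and primary 5, which do not. In BC cells its level was 6.61 and 11.4 RPKM for lung metastases and 8.80 and 11.4 RPKM for primaries. Hmga2 was thus low in 4 of 5 PDAC libraries with either label, and PDAC primary 5 lay above the BC range. Haemoglobin genes held 10.9 to 38.9% of the summed RPKM in those 4 libraries and 0.0582% in PDAC primary 5. The part of blood cell RNA in the Hmga2 values was not tested.

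Of the other nuclear members, Sirt1, the founding mammalian sirtuin and a deacetylase of p53 and FOXO factors, had the lowest median level of the family. In BC lung metastasis 6 it lay above Sirt2, Sirt5 and Sirt6. In PDAC primary 5, PDAC liver metastasis 1 and the PDAC lung metastasis it shared a value of 0 with at least 1 other member. It was listed at 0 in liver metastasis 1 and at 1.63 RPKM in liver metastasis 5, listed at 0 in the lung metastasis, and at 0.0319 RPKM in primary 1 and 0 in primary 5 of PDAC. It was at 0.901 and 0.329 RPKM in lung metastases and at 0.942 and 3.17 RPKM in primaries of BC. Only PDAC liver metastasis 5 among PDAC libraries came within the BC range.

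Sirt7, a deacylase of histone H3 that is concentrated in nucleoli and binds RNA polymerase I, was the 1 member with at least 1 RPKM in all 9 libraries. It was at 22.2 and 70.2 RPKM in liver metastases, 35.8 RPKM in the lung metastasis and 46.1 and 27.6 RPKM in primaries of PDAC. It was at 10.9 and 8.08 RPKM in lung metastases and 7.04 and 7.08 RPKM in primaries of BC. All 5 PDAC values lay above all 4 BC values. Sirt7 made up 99.97% of the summed sirtuin RPKM in PDAC primary 5, 28.05 to 51.87% in the other PDAC libraries and 13.22 to 16.47% in BC libraries. It was the highest sirtuin in 4 of 5 PDAC libraries and in 0 of 4 BC libraries.

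Sirt2, the tubulin deacetylase, was at 20.9 and 27.5 RPKM in liver metastases, 51.7 RPKM in the lung metastasis and 34.1 and 0.00895 RPKM in primaries of PDAC. It was at 25.0 and 0.0120 RPKM in lung metastases and 18.8 and 17.1 RPKM in primaries of BC. Its values fell into 7 libraries at 17.1 RPKM or more and 2, PDAC primary 5 and BC lung metastasis 6, at 0.0120 RPKM or less, with none between.

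Among the mitochondrial members, Sirt3, the main deacetylase of mitochondrial metabolic enzymes, was listed at 0 in liver metastasis 1, at 28.2 RPKM in liver metastasis 5, 36.5 RPKM in the lung metastasis, 25.7 RPKM in primary 1 and 0 in primary 5 of PDAC. It was at 9.41 and 34.6 RPKM in lung metastases and 8.05 and 8.00 RPKM in primaries of BC. Its exons overlap those of Ric8a over 418 bases (7.0% of its exonic length) and of Psmd13 over 342 bases (5.73%) on the other strand in GENCODE M21, and the library kit does not mark strand, so part of its reads may belong to them. Sirt7 shares 124 exonic bases (2.41%) with Mafg on the same strand.

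Sirt4, which acts on glutamate dehydrogenase and other mitochondrial enzymes, was at 6.27 and 3.86 RPKM in liver metastases, listed at 0 in the lung metastasis, and at 10.4 and 0 RPKM in primaries of PDAC. It was at 5.42 and 17.1 RPKM in lung metastases and 4.45 and 4.20 RPKM in primaries of BC. BC lung metastasis 6, which lists few genes, had the highest value of Sirt4 in the series and, on the deposited scale, a Sirt3 value second only to the PDAC lung metastasis. Sirt5, which removes succinyl and malonyl groups, was at 16.1 and 1.65 RPKM in liver metastases, 3.76 RPKM in the lung metastasis and 7.03 and 0 RPKM in primaries of PDAC. It was at 9.33 and 0 RPKM in lung metastases and 7.73 and 5.08 RPKM in primaries of BC.

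Ordered by the median over 9 libraries, the levels were 22.2 RPKM for Sirt7, 20.9 for Sirt2, 9.41 for Sirt3, 5.08 for Sirt5, 4.45 for Sirt4, 2.91 for Sirt6 and 0.329 for Sirt1. Each pair of neighbours in this order had overlapping ranges. Between the BC primaries the higher value was 1.01 times the lower for Sirt3 and Sirt7, 1.06 times for Sirt4, 1.07 times for Sirt6, 1.10 times for Sirt2, 1.52 times for Sirt5 and 3.37 times for Sirt1.

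**Figure D2:**
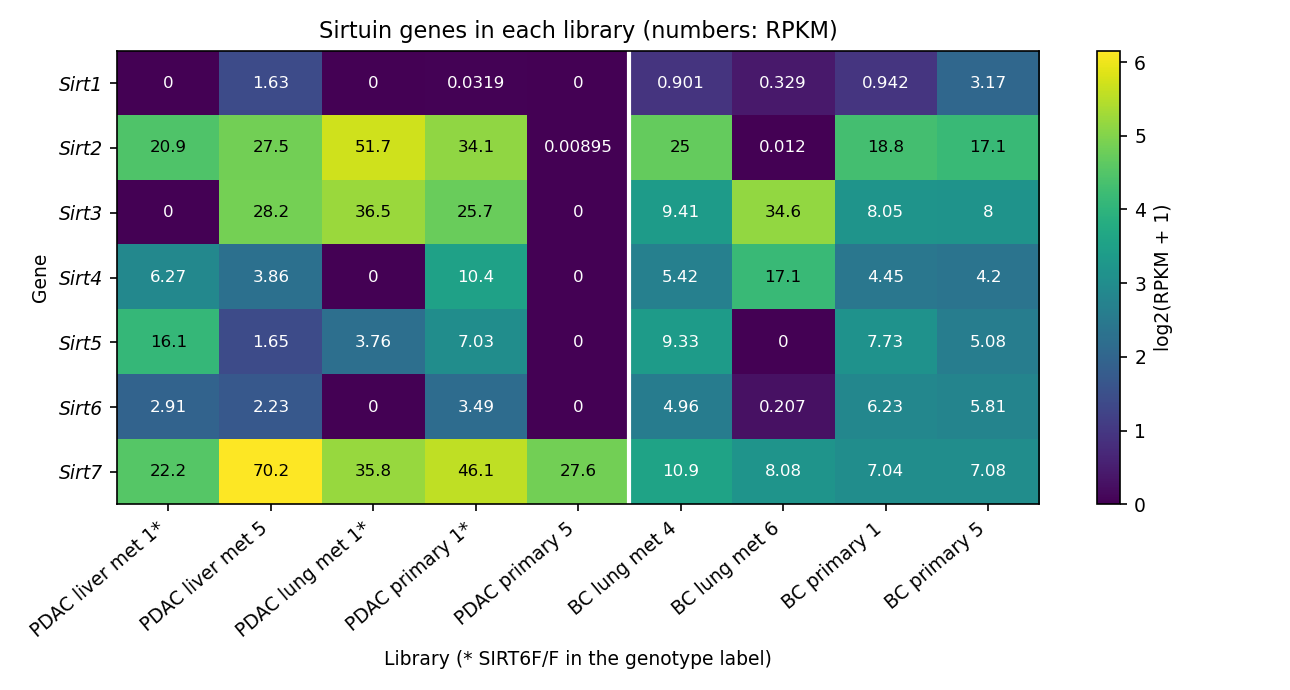
Heat map of the 7 sirtuin genes (rows) in the 9 libraries (columns, PDAC left of the white line and BC right of it), coloured by log2(RPKM + 1) with the RPKM value in each cell. The Sirt7 row holds no value under 7.04 RPKM, whereas the column of PDAC primary 5 holds 0 or near-0 values in every other row.

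The lung metastases of BC were compared with the BC primaries to ask whether the family differed after spread. No sirtuin gene passed in limma on log2(RPKM + 1) at an adjusted p under 0.05 (0 of 7, background 0% of 12832 genes, adjusted p 0.974 to 1), and 0 of 7 had an unadjusted p under 0.05 (background 2.07%). The log2 differences were -0.84 ± 0.68 for Sirt1, -1.88 ± 1.81 for Sirt2, 1.09 ± 1.84 for Sirt3, 1.02 ± 1.30 for Sirt4, -1.18 ± 1.53 for Sirt5, -1.39 ± 1.11 for Sirt6 and 0.36 ± 0.92 for Sirt7 (SE, n = 2 against 2). On this scale a change of a gene with low values is understated. Sirt3, Sirt4 and Sirt7 lay higher in both lung metastases than in both primaries, as did 15.8% of all genes tested, and Sirt1 and Sirt6 lay lower, as did 27% of all genes. With each library scaled to a common sum, no sirtuin stayed higher without overlap (background 9.83%) and the Sirt7 difference was -0.07. The family's median difference was -0.84, with 3 of 7 positive, beside -0.29 over all genes tested. It rested on BC lung metastasis 6: without that library it was 0.27, with 5 of 7 positive, beside -0.02 over all genes. The differences of Sirt2 (0.46) and Sirt5 (0.50) then turned their sign, and those of Sirt3 (0.21), Sirt4 (0.27) and Sirt6 (-0.24) shrank.

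The liver metastases of PDAC were set against the PDAC primaries in the same fit, without pairing by number. Again 0 of 7 sirtuins passed in limma (background 0.00779% of genes, adjusted p 0.896 to 1), and 0 of 7 had an unadjusted p under 0.05 (background 6.4%). The log2 differences were 0.67 ± 0.68 for Sirt1, 2.07 ± 1.81 for Sirt2, 0.06 ± 1.84 for Sirt3, 0.82 ± 1.30 for Sirt4, 1.25 ± 1.53 for Sirt5, 0.75 ± 1.11 for Sirt6 and 0.15 ± 0.92 for Sirt7 (SE, n = 2 against 2). All 7 were positive, with a median of 0.75, beside 53.93% of all genes tested and a median of 0.08. The groups overlapped for every sirtuin, while 15.4% of all genes tested lay higher and 10.2% lower without overlap. The sign of 6 of the 7 rested on PDAC primary 5, the library with 6 sirtuins near 0. Without it Sirt2 was at -0.49, Sirt3 at -2.31, Sirt4 at -0.94, Sirt5 at -0.25, Sirt6 at -0.34 and Sirt7 at -0.21, while Sirt1 was at 0.65. The Sirt1 difference rested on liver metastasis 5, without which the gene was not tested, since too few libraries reached 1 RPKM. Without liver metastasis 5, Sirt3 was at -2.37 and Sirt7 at -0.66, and without liver metastasis 1, Sirt5 was at -0.097. With a common sum, Sirt3 was at -0.34 and Sirt7 at -0.73. Hepatocyte genes (6 listed) summed to 765 and 1980 RPKM in these liver metastases and to 1.89 and 248 RPKM in the primaries, and their part in the values was not tested.

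The single lung metastasis of PDAC held the highest Sirt2 and Sirt3 values of the series on the deposited scale, with Sirt1, Sirt4 and Sirt6 at 0. With a common sum, Sirt2 was highest in BC lung metastasis 4 (64.0, against 55.9 in the PDAC lung metastasis) and Sirt3 in BC lung metastasis 6 (63.3, against 39.4). Against the PDAC primaries 0 of 7 sirtuins passed in limma (background 0.584%), and 0 of 7 had an unadjusted p under 0.05 (background 13.8%), with the lone library assumed to vary like the other groups. Its 5 lung epithelial genes summed to 35800 RPKM, against 1.65 and 174 RPKM in the PDAC primaries, and the part of lung RNA in its sirtuin values was not tested. The difference between the metastasis effect in PDAC liver and that in BC lung was tested as an interaction, which called 0 of 7 sirtuins (background 0%), with 0 at an unadjusted p under 0.05 (background 4.13%). Metastasis against primary over both models called 0 of 7 in limma (background 0.00779%), with 0 at an unadjusted p under 0.05 (background 4.89%).

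**Figure D3:**
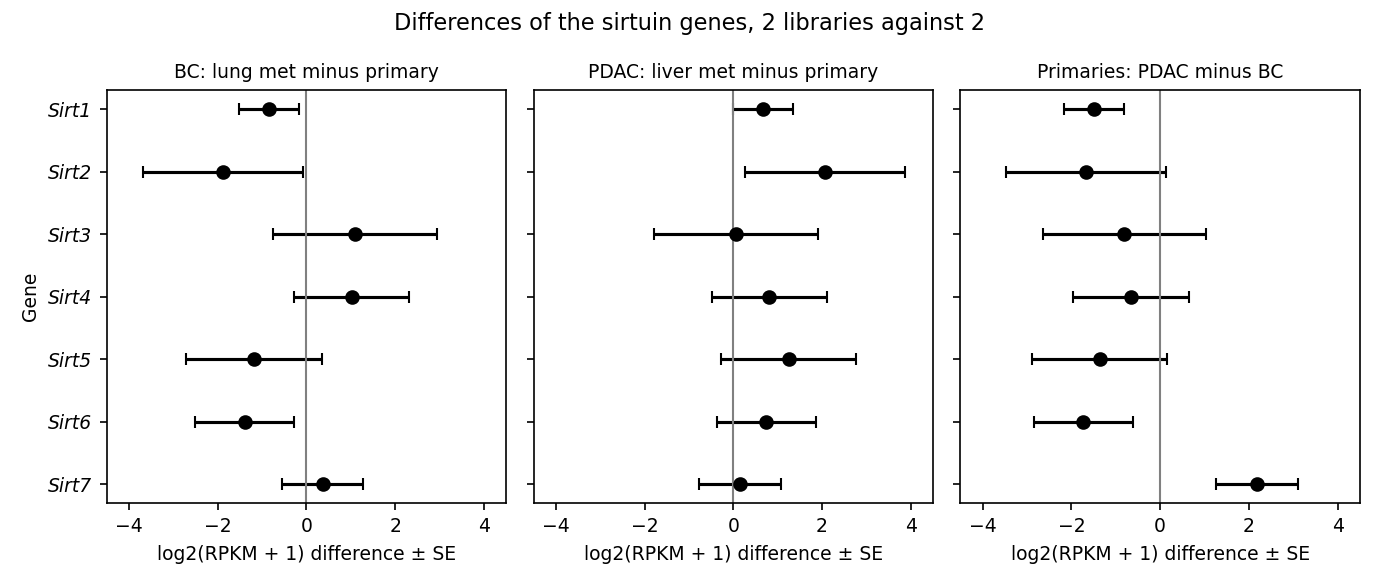
Difference in log2(RPKM + 1) for each sirtuin gene (rows) in 3 comparisons of 2 libraries against 2, with the standard error of limma as bars. The intervals of ± 1 SE are widest for Sirt2 and Sirt3, and Sirt7 in PDAC minus BC primaries stands highest, at 2.19.

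Between the tumour models, PDAC primaries were compared with BC primaries. Sirt7 averaged 36.9 ± 13.1 RPKM in PDAC primaries and 7.06 ± 0.0274 RPKM in BC primaries (SD, n = 2 each). Its log2 difference was 2.19 ± 0.92 (SE) and did not pass in limma (adjusted p = 0.349). Sirt1, at -1.49 ± 0.68 (limma adjusted p = 0.386), and Sirt6, at -1.73 ± 1.11 (limma adjusted p = 0.517), had negative differences. Of the 7 sirtuins 0 were called (background 0.0312%) and 1, Sirt7, had an unadjusted p under 0.05 (background 13.2%, 3.76% in the higher direction). Sirt7 lay higher in both PDAC primaries than in both BC primaries, as did 15.7% of genes, and Sirt1 and Sirt6 lay lower, as did 31.5%. The family's median difference was -1.36, with 1 of 7 positive, beside -0.31 over all genes tested. It rested on PDAC primary 5: without that library it was 0.89, with 5 of 7 positive, beside -0.03 over all genes, and Sirt6 was at -0.64. Without PDAC primary 1 it was -2.81, which was also the Sirt6 difference. With the replicate block, a term for PDAC number 5 alone, it was -0.48, with 3 of 7 positive. That fit sets the level of PDAC number 1 against BC, so it is a different comparison from the unblocked one.

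A comparison of all 5 PDAC with all 4 BC libraries, with metastasis or primary as a covariate, was added after the Sirt7 values had been seen, so its result for Sirt7 describes a pattern already noticed. The 5 PDAC libraries came from only 2 mouse numbers. The fit took them as independent for every gene, so its p-values may understate the spread between mice, as may the SD. Sirt7 averaged 40.4 ± 18.9 RPKM in PDAC (SD, n = 5 libraries) and 8.27 ± 1.79 RPKM in BC (SD, n = 4 libraries). It was higher in 5 of 5 PDAC libraries than in every BC library. A higher level without overlap held for 2.72% of all genes tested. The log2 difference was 2.04 ± 0.65 (SE) and missed the threshold in limma (adjusted p = 0.121, 0.0574 to 0.271 over its alternatives). The other 6 sirtuins were not called either (0 of 7, background 2.97%), and Sirt7 was the 1 member with an unadjusted p under 0.05 (background 19.9%, 7.74% in the higher direction). The lowest adjusted p came without the 3 libraries with the fewest genes, where the difference was 2.16.

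The size of this difference depends on the scale. With each library brought to a common sum of 1000000, Sirt7 was at 24.1 and 70.7 in liver metastases, 38.7 in the lung metastasis and 82.7 and 58.2 in primaries of PDAC, and at 27.8 and 14.8 in lung metastases and 18.7 and 24.6 in primaries of BC. PDAC liver metastasis 1 then lay within the BC range, with 1.29% of all genes higher without overlap on this scale, and the log2 difference was 1.28. Haemoglobin genes held 38.9% of the summed RPKM in that library. With those genes left out of the sum, Sirt7 was at 39.45 to 92.85 in PDAC and 14.81 to 27.78 in BC libraries, again without overlap, as for 1.72% of all genes, and the log2 difference was 1.62. The common sum moved the median difference of all genes tested to -0.94, against -0.21 on the deposited scale, so Sirt7 stood above the median gene on either. Leukocyte and erythroid sums were higher in 4 of 5 PDAC libraries than in any BC library, and their part in the Sirt7 difference was not tested. PDAC primary 5 lay within the BC range for both, at 199 and 276 RPKM, and its 5 neutrophil genes (12.9 RPKM in sum) and 6 lymphocyte genes (2.0 RPKM) lay below it. There 2 of the neutrophil and 3 of the lymphocyte genes were listed at 0, in a library with many ordinary genes near 0. Its Sirt7 level was 27.6 RPKM. Whether its low marker sums came from fewer blood cells or from genes missing in the library was not tested. Neutrophil genes summed to 8700 and 167000 RPKM in PDAC liver metastases 1 and 5, 20800 RPKM in the lung metastasis and 1100 RPKM in primary 1. Lymphocyte genes summed to 5710, 9650, 2790 and 30200 RPKM in these libraries, in the same order.

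**Figure D4:**
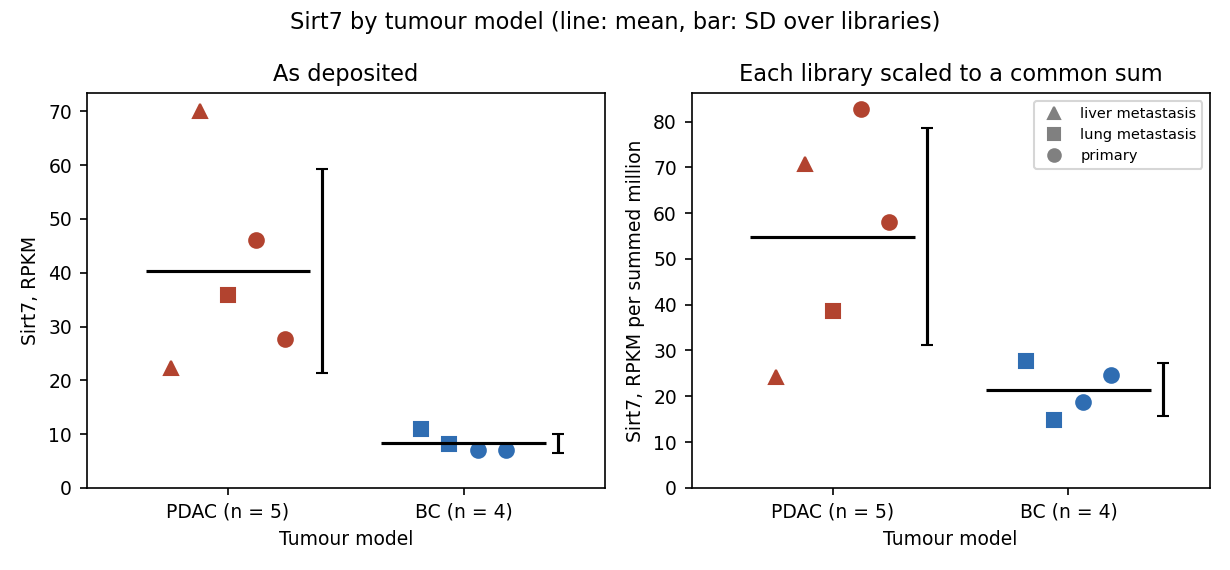
Sirt7 in each library by tumour model, as deposited in RPKM (left) and after scaling each library to a common sum of 1000000 (right), with triangles for liver metastases, squares for lung metastases, circles for primaries, a line at the mean and a bar of ± 1 SD. The 5 PDAC points lie above the 4 BC points on the left, and liver metastasis 1, at 24.1, falls among the BC points on the right.

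Likeness between genes was taken as Pearson's r of log2(RPKM + 1) over the 9 libraries, as a description. Values near 0 in the same libraries enter every such r. Among the members, Sirt2 and Sirt5 were most alike (r = 0.80), then Sirt5 and Sirt6 (0.74), and Sirt1 and Sirt7 were least alike (-0.37). The closest genes outside the family were Zfp871 (0.996) for Sirt1, Aagab and Ptpn2 (0.99 each) for Sirt2, BC088983 (0.972) for Sirt3, Hddc3 (0.99) for Sirt4, Ddx54 (0.949) for Sirt5 and Zc3h14 (0.997) for Sirt6. Next came Kremen1 (0.983) and Zfp790 (0.981) for Sirt1, Stx4a (0.987) for Sirt2, Pnrc2 (0.955) and Dolpp1 (0.941) for Sirt3, and Trappc2 (0.986) and Gtf3a (0.982) for Sirt4. Sh3glb2 (0.947) and Hemk1 (0.945) followed for Sirt5, and Cnpy4 (0.993) and Zfp523 (0.991) for Sirt6. For Sirt7 they were Gdpd3 (0.973), Cytip (0.97), which encodes a cytohesin-binding protein of leukocytes, and Chi3l3 (0.963), a chitinase-like gene of mouse macrophages.

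Genes that make or use the cofactor NAD were examined beside the sirtuins. Of 14 genes of NAD synthesis tested, 0 were called in any of the 6 planned comparisons. In the added comparison of PDAC with BC, Naprt, which starts NAD synthesis from nicotinic acid, was higher and was the 1 of 14 called (background 1.13% higher; log2 3.26 ± 0.78, SE; limma adjusted p = 0.0418, 0.0238 to 0.179 over its alternatives). Naprt was at 4.78 and 5.05 RPKM in liver metastases, 8.66 RPKM in the lung metastasis and 8.36 and 53.4 RPKM in primaries of PDAC. It was at 0.475 and 0 RPKM in lung metastases and 0.0757 and 0.525 RPKM in primaries of BC. All 5 PDAC values lay above all 4 BC values, but the call was lost in 11 of 18 alternatives. These were a pseudocount of 0.1, no filter, the replicate block (log2 2.84, limma adjusted p = 0.142) and leaving out any 1 library but PDAC primary 5. The block sets the level of PDAC number 1 against BC. Haao, a kynurenine pathway dioxygenase gene, was at 63.5, 54.5, 20.6 and 174 RPKM in the PDAC liver metastases 1 and 5, lung metastasis and primary 1, at 0.0261 RPKM in PDAC primary 5 and at most 0.298 RPKM in BC libraries. Nadk, the NAD kinase gene, was lowest in PDAC primary 5 (6.91 RPKM) and highest in PDAC liver metastasis 5 (92.4 RPKM).

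Of 10 other NAD-consuming enzyme genes tested, 0 were called in any comparison. Parp2, a DNA damage responsive ADP-ribose polymerase gene, was listed at 0 in PDAC primary 5 and at 22.1 to 77.3 RPKM in the other 8 libraries. Bst1, an ADP-ribosyl cyclase gene, was at 9.10 to 93.3 RPKM in PDAC libraries, 9.61 and 14.6 RPKM for the lung metastases of BC, and 0.805 and 1.58 RPKM for its primaries.

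The other classes of lysine deacetylases and the enzymes that add acetyl groups were read in the same way. Of 10 zinc-dependent deacetylase genes tested and 8 lysine acetyltransferase genes tested, 0 were called in any comparison. Hdac2 was at 2.59 to 32.8 RPKM in PDAC libraries and 20.2 to 72.3 RPKM in BC libraries. Hdac3 had 0.0194 RPKM in the lung metastasis of PDAC and 12.3 to 45.6 RPKM in the other 8 libraries, and Hdac10 was listed at 0 in BC lung metastasis 6 and reached 42.2 RPKM in PDAC primary 1. Kat2a (GCN5) was at 0.00894 to 16.0 RPKM in PDAC libraries and 12.7 to 42.4 RPKM in BC libraries. Kat5 was listed at 0 in PDAC liver metastasis 1 and reached 31.2 RPKM in PDAC primary 1, and Kat8 was listed at 0 in PDAC liver metastasis 1 and reached 31.7 RPKM in the PDAC lung metastasis.

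Substrates and partners of the sirtuins gave 0 calls in all comparisons. These were 11 regulators and substrates of SIRT1, 7 genes repressed by SIRT6, 11 mitochondrial substrates and 9 genes of RNA polymerase I and its initiation factors. Rps19bp1, which encodes an activator of SIRT1, was at 9.77 to 87.1 RPKM in PDAC libraries and 39.1 to 237 RPKM in BC libraries, and Rela, an NF-kB subunit and SIRT1 substrate, was at 4.56 to 62.7 RPKM in PDAC and 48.6 to 81.4 RPKM in BC libraries. Nr1h3 (LXR alpha) reached 35.5 RPKM in PDAC liver metastasis 1 and was listed at 0 in PDAC primary 5, and Epas1 (HIF-2 alpha) reached 23.8 RPKM in the PDAC lung metastasis and was at most 3.93 RPKM elsewhere.

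Of the glycolytic genes restrained by SIRT6, Ldha was at 148 to 515 RPKM in PDAC and 522 to 992 RPKM in BC libraries, so that the models did not overlap, as for 6.23% of all genes tested that lay lower in PDAC (13.2% with a common sum), and it was not called. Tpi1 was at 44.3 to 444 RPKM in PDAC and 319 to 610 RPKM in BC libraries, and Ldhb was listed at 0 in PDAC primary 5 and reached 141 RPKM in the PDAC lung metastasis. Among mitochondrial substrates, Ndufa9 was at 62.3 to 159 RPKM in PDAC and 69.6 to 119 RPKM in BC libraries, and Idh2 was at 22.5 to 162 RPKM in PDAC and 77.8 to 151 RPKM in BC libraries. Sdha and Sod2, encoding a respiratory complex II subunit and the mitochondrial superoxide dismutase deacetylated by SIRT3, were at 0.0247 and 0.184 RPKM in PDAC primary 5 and at 8.26 RPKM or more in the other 8 libraries. Of the polymerase I genes, Polr1d was at 33.1 to 57.6 RPKM in PDAC and 25.2 to 132 RPKM in BC libraries, Polr1c was listed at 0 in PDAC primary 5 and reached 30.1 RPKM in BC primary 1, and Taf1b was between 0.0530 RPKM in BC lung metastasis 6 and 46.3 RPKM in the PDAC lung metastasis. In the comparison of all PDAC with all BC libraries the polymerase I genes had a median log2 difference of -1.07 with 1 of 9 positive, beside a Sirt7 difference of 2.04 and a median of -0.21 over all genes tested. That list also held 0 calls. Medians of the other lists ran from -1.025 for genes repressed by SIRT6 (1 of 7 positive) to 0.44 for NAD synthesis genes (9 of 14 positive). The housekeeping genes had a median of -0.69, with 2 of 14 positive. Of the 14 housekeeping genes 1 was called in this comparison, B2m, the light chain gene of MHC class I, which was lower (-1.82 ± 0.33, SE; limma adjusted p = 0.0104, 0.000321 to 0.097 over its alternatives, background 1.84% lower). It was at 1013 and 1451 RPKM in liver metastases, 1325 RPKM in the lung metastasis and 1359 and 938 RPKM in primaries of PDAC, below all BC libraries at 2415 to 8295 RPKM. The call was lost in 4 of 18 alternatives. These were the replicate block (limma adjusted p = 0.0527), the fit without BC lung metastasis 4 (0.0501), the fit without trend and robust moderation (0.0905) and the one without the 3 libraries with the fewest genes (0.097). The block value again refers to PDAC number 1 against BC.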

How the data were processed

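RNA was amplified with the SMART-seq v4 kit from at least 100 ng of total RNA and fragmented with Nextera XT, per the labels' protocols. Per the submitters' processing notes, reads were placed on mm9. For the aligner, counter and annotation, names are not given in the sources used here. Values deposited by the authors came as 1 table of 9 libraries, named CPM, but its columns sum to 288171 to 992077. Multiplied by GENCODE M21 exonic lengths, 62.7 to 74.1% of low values are whole multiples (within 0.02) of 1 step per library, so the deposited values were read as RPKM, with scaling totals of 12800000 to 131000000 reads. Exact depth per gene is unknown, so no counting intervals are given.

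limma 3.58.1 (R 4.3.3, statmod 1.5.0) was fitted to log2(RPKM + 1), with trend and robust moderation, for the 12832 genes that reached 1 RPKM or more in 2 or more of 9 libraries, all libraries in 1 fit, with Benjamini-Hochberg adjustment, two-sided, calls at adjusted p under 0.05. The fit was tested on simulated data with a reduced spread and without libraries that list many genes near 0. That test does not show how the fit handles such libraries. The members and gene lists were chosen with earlier results of these data known. Genes named are all members, the 3 most correlated with each, and per list any called gene, the 2 highest and the 2 widest in range, with Lin28b, Igf2bp1, Igf2bp3 and Hmga2. Equal PDAC numbers were read as pairs, because metastases are described as matched and same-numbered libraries share age and genotype. The main fit did not use this pairing, which entered only in the alternative with a replicate block. Deviations of PDAC primary 1 and liver metastasis 1 correlated at -0.165 over 12832 genes. Alternatives changed the pseudocount, the filter, the scaling, the moderation, the libraries fitted and the block.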

Additional observations from a re-analysis of the deposited data

How the results depend on the processing

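The number of sirtuin genes called was 0 in every comparison under every alternative run, including the replicate block by PDAC number (0 sirtuins called; Naprt, 2.84, limma adjusted p = 0.142, and B2m, limma adjusted p = 0.0527, were no longer called), which changed no other call named here. Counts over all genes moved more: leaving out 1 library gave 0 to 1032 genes in PDAC liver against primary (1 as reported; 1032 without PDAC primary 1), 0 to 1547 for PDAC lung (75; 1547 without PDAC primary 1), 1 to 803 for PDAC against BC primary (4; 803 without PDAC primary 1 and 205 without PDAC primary 5), 0 to 30 for the interaction (0), 0 to 10 over both models (1) and 153 to 818 for all PDAC against BC (381). Fitting only the libraries compared gave 73 genes in BC lung against primary (0 as reported). The block gave 0 genes for PDAC liver, PDAC lung and both models, 1 for PDAC against BC primary and 200 for all PDAC against BC. Its values for PDAC against BC, with those of Naprt and B2m, refer to PDAC number 1. In BC lung against primary, Sirt7 turned to -0.0734 with a common sum and -0.0726 with haemoglobin genes left out, and Sirt1 to 0.15 with quantile scaling. Without the 3 libraries with the fewest genes (PDAC lung metastasis 1, PDAC primary 5, BC lung metastasis 6), an alternative planned with the doubt about them known, Sirt2 was 0.46 and Sirt5 0.50; leaving out 1 library they were -4.22 to 0.46 and -2.87 to 0.50. In PDAC liver against primary, Sirt3 was -0.34 with a common sum, -0.27 without haemoglobin and -0.0184 with quantile scaling, and Sirt7 -0.73 with a common sum and -0.31 without haemoglobin. Without the 3 libraries Sirt2 was -0.49, Sirt3 -2.31, Sirt4 -0.94, Sirt5 -0.25, Sirt6 -0.34 and Sirt7 -0.21. Leaving out 1 library gave -0.49 to 4.63 for Sirt2, -2.37 to 2.50 for Sirt3, -0.94 to 2.57 for Sirt4, -0.25 to 2.75 for Sirt5, -0.34 to 1.83 for Sirt6 and -0.66 to 0.95 for Sirt7. The cause was not tested. Sirt1 was not tested under the stricter filter of 5 RPKM, with only the libraries compared, without BC primary 5 or without PDAC liver metastasis 5, and the PDAC lung comparison has no value without its 1 library. Groups of 2 libraries, 4 of 9 libraries with many genes near 0 and an unknown read depth per gene limit what a difference of a sirtuin can show.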
